A study of Homo sapiens with 8 samples.

Results

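The genes described here are 37 genes of amino acid supply and use in 2 human bladder cancer cell lines: the 20 genes of the cytosolic aminoacyl-tRNA synthetases, 6 regulators of the stress response around the transcription factor ATF4, 5 enzymes of serine and one-carbon metabolism, 3 enzymes that make asparagine and proline, and 3 amino acid transporters. They were listed by symbol among the 27475 human genes of the deposited tables. The list was drawn up after TARS in RT112 and PYCR1 in both cell lines had been seen at a lower level with the siRNA against PAI-1, so the values with this siRNA chose the list and are given below as a description. All 37 genes were above 0 TPM in all 8 libraries, all averaged 1 TPM or more, and 35 averaged 10 TPM or more (transcript counts corrected for gene length and scaled to the same total in each library, so that levels of different genes can be compared).

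A tRNA synthetase joins 1 amino acid to its tRNA, the step that makes the genetic code readable by the ribosome. When amino acids run short or proteins misfold, kinases phosphorylate the initiation factor eIF2, general translation slows, and the mRNA of ATF4 is translated more. ATF4 then switches on genes for amino acid uptake and synthesis, many cytosolic synthetases, and a feedback set that includes DDIT3 and TRIB3. ATF4 is controlled to a large extent at translation, which a measurement of mRNA does not record.

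The study used siRNA against PAI-1 in the established lines UM-UC-3 and RT112. For 72 h, cells were transfected with 100 pmol of siRNA, either 3 pooled siRNAs that target PAI-1 (siPAI-1) or 3 pooled scrambled ones (Scr, labelled siControl or WT). Each of the 4 groups, UM-UC-3 Scr, UM-UC-3 siPAI-1, RT112 Scr and RT112 siPAI-1, has 2 libraries of stranded mRNA, named replicate 1 and 2. The labels name RPMI 1640 or DMEM as the medium without saying which line received which, so the cell line and a difference in medium cannot be told apart. The knock-down was repeated in independent experiments according to the paper. No label ties the libraries of a group to separate cultures, and the p-values then measure the spread between these libraries, which may be technical. Each line is 1 cell line, and in bulk RNA fewer cells of a kind and less RNA per cell cannot be told apart.

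The estimated depth was 29.3 to 34.2 M reads per library. Correlations of log2 values were at least 0.984 within a line and 0.608 to 0.635 between lines. Of the markers listed for each line, the epithelial CDH1 lay at 141 to 149.6 TPM in RT112 and at most 0.48 TPM in UM-UC-3, and the mesenchymal VIM at 2852 to 3142 TPM in UM-UC-3 and at most 8.09 TPM in RT112, whereas the mesenchymal CDH2 lay at 7.65 to 20.6 TPM in RT112 and 9.22 to 12.6 TPM in UM-UC-3. The immune markers PTPRC and CD3E were at most 0.03 and 0.2 TPM in all libraries, while CD68, listed as an immune marker, lay at 272 to 279 TPM in UM-UC-3. Of the 3 fibroblast markers, COL3A1 lay at 129 to 148 TPM in UM-UC-3 and at most 0.48 TPM in RT112, LUM at 0.19 to 1.31 TPM and 10.7 to 17.97 TPM, and DCN at most at 0.52 TPM in any library. Their part in the results was not tested.

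Some of these genes share a short promoter sequence. The amino acid response element, to which ATF4 binds with a C/EBP partner, was searched as the letters TGATGNAA on both strands of RefSeq promoters (GRCh38.p14, 250 bases before to 50 bases after the start site). Of the 37 genes, 29 matched a promoter entry, and 11 of them (37.9%) held the letters: AARS, CARS, GARS, IARS, MARS, NARS, TARS, ATF3, CHAC1, ASNS and SLC3A2. A gene was counted if any of its promoter entries held the letters. CARS, GARS, TARS, ATF3, ASNS and SLC3A2 also have an entry or entries without them. Over all genes with an entry, 1217 of 27305 (4.46%) held the letters, counted in the same way. Promoters are not listed for DARS, LARS, VARS, YARS, PSPH, SHMT2, PYCR1 and SLC7A11.

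Below are 60 bases of 6 of the promoters that hold the letters, chosen after the values had been seen. All 6 genes were lower in RT112 with Scr. Of the genes with the letters that are not shown, ATF3, NARS and SLC3A2 were higher there and AARS and IARS lower. Each sequence is written 5′ to 3′ on the strand of the gene with the matched letters in capitals. Where TTGCATCA or TTTCATCA stands in capitals, the match is on the other strand. The 6 sequences lie at chr7:97872443-97872502 (ASNS, minus strand), chr15:40953236-40953295 (CHAC1, plus), chr11:3057404-3057463 (CARS, minus), chr12:57488028-57488087 (MARS, plus), chr7:30594819-30594878 (GARS, plus) and chr5:33440925-33440984 (TARS, plus).
ASNS: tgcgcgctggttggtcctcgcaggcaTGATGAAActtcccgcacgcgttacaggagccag
CHAC1: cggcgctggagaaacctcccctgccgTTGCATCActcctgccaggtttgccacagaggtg
CARS: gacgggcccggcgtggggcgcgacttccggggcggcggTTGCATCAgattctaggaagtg
MARS: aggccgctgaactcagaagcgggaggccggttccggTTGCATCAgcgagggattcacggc
GARS: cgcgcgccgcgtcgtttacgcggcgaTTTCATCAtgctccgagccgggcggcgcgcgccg
TARS: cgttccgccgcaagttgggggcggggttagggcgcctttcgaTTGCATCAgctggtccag
The first matched base lies at -68 from the start site in ASNS, -209 in CHAC1, -2 in CARS, -4 in MARS, -33 in GARS and 2 in TARS. A match of letters describes the sequence and is not evidence of a bound site. Among the genes of the mitochondrial synthetase list with an entry, 1 of 15 (6.67%) held the letters, and among other ATF4 target genes 7 of 19 (36.8%).

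The first question was how the genes differ between RT112 and UM-UC-3. Most synthetases and the enzymes ASNS and PSAT1 were lower in RT112, and both subunits of the large neutral amino acid transporter were many fold higher there. With Scr, 10 of the 37 genes were higher and 23 lower in RT112 at an adjusted p under 0.05 (limma, Benjamini-Hochberg over 19201 genes), and 4 did not pass. Of all genes tested, 25.3% were higher and 26.3% lower, and of the 8579 genes that averaged 10 TPM or more 33% and 33.6%. The median log2 fold change was -0.38 over the 37 genes and -0.03 over those 8579 genes. In the siPAI-1 libraries, which share none with the Scr comparison, again 10 genes were higher and 23 lower, with a median of -0.51. There the background was 26.2% higher and 26.1% lower of 19359 genes, and 33.8% and 33.9% of the 8644 genes at 10 TPM or more. In both comparisons, 10 genes were higher and 22 lower. FARSA passed only with Scr, SLC7A11 only with siPAI-1, and WARS, ATF4 and SESN2 in neither. Of the 8579 genes that averaged 10 TPM or more with Scr, 2532 were higher and 2532 lower in both comparisons. TARS and PYCR1, on which the list was chosen, are among the lower genes in both. For TARS and PYCR1 the siPAI-1 libraries are not an independent repeat. For every gene they compare the same 2 cell lines again, and so do not repeat the line difference in further lines.

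**Figure D1:**
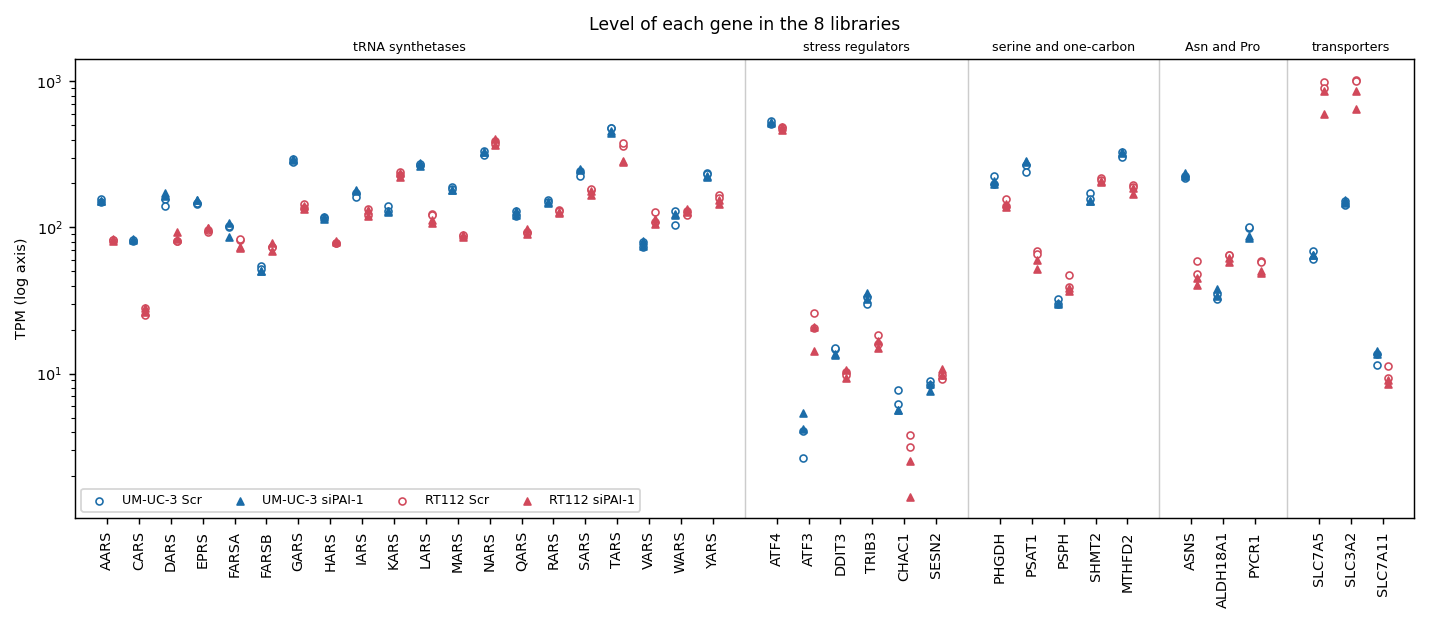
Level of each of the 37 genes in TPM (vertical log axis) in the 8 libraries, with UM-UC-3 in blue, RT112 in red, Scr as open circles and siPAI-1 as filled triangles, 1 point per library and genes grouped by role. SLC7A5 and SLC3A2 lie far higher in RT112, ASNS, PSAT1 and CARS lie lower there, and ATF4 lies at nearly the same level in both lines.

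The synthetases were abundant messages in both lines. Their median level was 149 to 155 TPM in the UM-UC-3 libraries and 107 to 122 TPM in those of RT112, and together they took 0.353% to 0.364% and 0.266% to 0.281% of the TPM. TARS, for threonine, was the highest in all 4 UM-UC-3 libraries, and NARS, for asparagine, in 3 of the 4 RT112 libraries. The lowest was FARSB in each UM-UC-3 library and CARS in each RT112 library. With Scr, 15 of the 20 were lower and 4 higher in RT112, with a median log2 fold change of -0.40. With siPAI-1, 14 were lower and 4 higher, with a median of -0.54. TARS, on which the list was chosen, is among the lower genes in both counts. Over all genes at 10 TPM or more, 33% were higher and 33.6% lower with Scr, and 33.8% and 33.9% with siPAI-1.

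CARS, which charges the tRNA of cysteine, had the widest gap of the synthetases. It stood at 80.5 and 81.6 TPM in UM-UC-3 Scr, 81.4 and 83.0 TPM in UM-UC-3 siPAI-1, 28.2 and 25.1 TPM in RT112 Scr, and 26.2 and 28.3 TPM in RT112 siPAI-1. The 2 lines did not overlap, and CARS was 3.04-fold lower in RT112 with Scr (log2 fold change -1.60, SE 0.08, limma adjusted p = 0.000683) and 3.01-fold lower with siPAI-1 (-1.59, SE 0.07).

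LARS, MARS and GARS, for leucine, methionine and glycine, were each more than 2-fold lower in RT112. LARS lay at 263 to 277 TPM in UM-UC-3 and 108 to 123 TPM in RT112, with log2 fold changes of -1.13 (SE 0.04, adjusted p = 0.000415) and -1.29. MARS lay at 179.5 to 189 TPM and 86.6 to 89.0 TPM, with -1.08 and -1.04. GARS lay at 279.7 to 295 TPM and 135 to 145 TPM, with -1.04 and -1.09. None of the 3 overlapped between the lines in any library.

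A second tier of synthetases was lower by less than 1 log2 unit. AARS (alanine) and DARS (aspartate) had log2 fold changes of -0.89 and -0.88 with Scr. EPRS, which serves both glutamate and proline, had -0.63, HARS (histidine) -0.58 and YARS (tyrosine) -0.53. QARS (glutamine), IARS (isoleucine), TARS and SARS (serine) followed at -0.42, -0.38, -0.37 and -0.35. RARS (arginine) was the least changed that passed, at -0.21 (SE 0.05, adjusted p = 0.0240), and all 10 passed with both siRNAs. Of these, TARS is a gene on which the list was chosen.

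The synthetases that were higher in RT112 were KARS, VARS, FARSB and NARS. KARS, for lysine, lay at 128 to 141 TPM in UM-UC-3 and 223 to 238 TPM in RT112, with log2 fold changes of 0.79 (SE 0.06, adjusted p = 0.00162) with Scr and 0.83 with siPAI-1. VARS, for valine, had 0.63 and 0.50, and NARS 0.24 and 0.22. The NARS call with Scr was lost without replicate 1 of either line (0.21 without that of RT112 and 0.20 without that of UM-UC-3), and with siPAI-1 it was lost without RT112 replicate 1 (0.16) or either UM-UC-3 replicate (0.22 each).

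The 2 subunits of the phenylalanine enzyme lay on opposite sides. FARSB, the beta subunit, was at 50.4 to 54.6 TPM in UM-UC-3 and 69.5 to 78.5 TPM in RT112, and passed with 0.46 (Scr) and 0.55 (siPAI-1). FARSA, the alpha subunit, was at 101 and 102 TPM in UM-UC-3 Scr against 81.5 and 82.9 TPM in RT112 Scr, which passed with -0.30 (SE 0.05, adjusted p = 0.0102). With siPAI-1 it was -0.39 with a wider spread (SE 0.12, adjusted p = 0.0581). The FARSA call with Scr was lost when any 1 library was left out (-0.32 to -0.29), and with siPAI-1 the gene passed without UM-UC-3 replicate 1 (-0.24) or 2 (-0.55). Per library, the ratio of FARSA to FARSB was 1.70 to 2.12 in the UM-UC-3 libraries and 0.92 to 1.13 in those of RT112, without overlap.

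WARS, for tryptophan, was the one synthetase that passed in neither comparison. Its log2 fold changes were 0.11 (SE 0.13, adjusted p = 0.518) with Scr and 0.09 (SE 0.05, adjusted p = 0.21) with siPAI-1. The Scr libraries of UM-UC-3 were themselves apart, at 130 and 104 TPM. Without UM-UC-3 Scr replicate 2 the value was -0.05, and without replicate 1 it was 0.27 and passed.

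Of these enzymes, 8 (EPRS, IARS, LARS, MARS, QARS, KARS, RARS and DARS) assemble into the multi-synthetase complex. With Scr, 7 of the 8 were lower in RT112 and KARS was higher, with a median of -0.53, and of the other 12 synthetases 8 were lower and 3 higher, with a median of -0.36. With siPAI-1 the 2 groups lay close together. The median was -0.57 for the complex (7 lower, 1 higher) and -0.54 for the other 12 (7 lower, 3 higher). This grouping was added after the values had been seen. Among all genes at 10 TPM or more, 33% were higher and 33.6% lower with Scr, and 33.8% and 33.9% with siPAI-1. The complex partners and related genes went both ways: XPOT, which exports tRNA from the nucleus, was lower in RT112 (-1.14 with Scr and -1.07 with siPAI-1), and the scaffold gene AIMP2 was higher (0.29 and 0.45). They were the 2 of 5 that passed in both comparisons.

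Most mitochondrial synthetases are encoded by nuclear genes of their own, whereas GARS and KARS encode both the cytosolic and the mitochondrial enzyme, so their levels cover both forms. The list of mitochondrial genes, which holds synthetases and QRSL1, a subunit of an amidotransferase that completes glutaminyl-tRNA in mitochondria, lay lower, with medians of 14.5 to 18.3 TPM in UM-UC-3 and 21.5 to 24.5 TPM in RT112. Of the 18 genes on that list, 11 were higher and 2 lower in RT112 with Scr (median log2 fold change 0.60), and 10 and 2 with siPAI-1 (median 0.54). Among all genes at 10 TPM or more, 33% were higher and 33.6% lower with Scr, and 33.8% and 33.9% with siPAI-1. MARS2, PARS2 and CARS2 had the largest differences, at 1.25, 1.15 and 1.09 with Scr, and with siPAI-1 they had 1.46, 1.497 and 1.26. The lower ones were the synthetase RARS2 and the amidotransferase gene QRSL1, which were picked out after their values were seen. The cytosolic enzyme for cysteine was 3.83 to 4.83 times the level of its mitochondrial counterpart in UM-UC-3, and 0.52 to 0.7 times in RT112. For methionine the ratio of MARS to MARS2 was 35.5 to 45.2 in UM-UC-3 and 6.79 to 7.24 in RT112. Both pairs hold genes with large line differences, and not all pairs went this way. The ratio of RARS to RARS2 was higher in RT112, at 2.72 to 2.92 in UM-UC-3 and 3.44 to 3.67 in RT112. That of NARS to NARS2 overlapped between the lines, at 21.82 to 28.52 and 18.9 to 25.26. The difference between the cytosolic and the mitochondrial list was not tested as such.

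Among the regulators, the mRNA of ATF4 itself hardly differed. It stood at 511 and 535 TPM in UM-UC-3 Scr, 523 and 523 TPM in UM-UC-3 siPAI-1, 487 and 482 TPM in RT112 Scr, and 467 and 487 TPM in RT112 siPAI-1. RT112 was slightly lower in every library, by -0.11 (SE 0.04, adjusted p = 0.109) with Scr and -0.13 (SE 0.04, adjusted p = 0.0573) with siPAI-1, and neither passed. It did pass without UM-UC-3 Scr replicate 1 (-0.14) and, with siPAI-1, without RT112 replicate 2 (-0.17).

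ATF3, a stress-induced repressor and activator of the same bZIP family, was higher in RT112. Its levels were 2.66 and 4.07 TPM in UM-UC-3 Scr, 4.16 and 5.35 TPM in UM-UC-3 siPAI-1, 20.45 and 25.9 TPM in RT112 Scr, and 14.2 and 20.7 TPM in RT112 siPAI-1. The lines did not overlap, with log2 fold changes of 2.77 (SE 0.27, adjusted p = 0.00248) and 1.84 (SE 0.25, adjusted p = 0.0065). Its replicates were wider apart than those of the enzymes.

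DDIT3 (CHOP, a proapoptotic factor), TRIB3 (a pseudokinase that damps ATF4) and CHAC1 (which degrades glutathione) were all lower in RT112. DDIT3 had log2 fold changes of -0.57 and -0.43, and TRIB3 -0.87 and -1.10. CHAC1 was low everywhere, at 5.6 to 7.72 TPM in UM-UC-3 and 1.42 to 3.77 TPM in RT112, with -0.99 (SE 0.20, adjusted p = 0.0194) and -1.53 (SE 0.33, adjusted p = 0.0216). With Scr, its call was lost when any 1 of the 4 libraries was left out, with values of -1.14 to -0.83. SESN2, an inhibitor of mTORC1 that senses leucine, had 0.14 (adjusted p = 0.381) and 0.33 (adjusted p = 0.109), and did not pass.

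Serine synthesis runs from glycolysis through PHGDH, PSAT1 and PSPH, and PSAT1 was the step with the widest gap. PSAT1 stood at 269.6 and 241 TPM in UM-UC-3 Scr, 284 and 281 TPM in UM-UC-3 siPAI-1, 69.2 and 66.3 TPM in RT112 Scr, and 51.9 and 60.2 TPM in RT112 siPAI-1. It was 3.76-fold lower in RT112 with Scr (log2 fold change -1.91, SE 0.08, adjusted p = 0.000469) and 5.05-fold lower with siPAI-1 (-2.34, SE 0.09).

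PHGDH, the first enzyme, was lower in RT112 by less, with -0.50 and -0.51, and PSPH, the last, was higher, with 0.47 (adjusted p = 0.0365) and 0.31 (adjusted p = 0.0241). The mitochondrial one-carbon enzymes also parted. SHMT2, which turns serine into glycine, was higher in RT112 (0.39 and 0.45), and MTHFD2, the next oxidation step, was lower, at 302 to 329.6 TPM in UM-UC-3 and 169 to 195 TPM in RT112 (-0.71 and -0.88). All 5 enzymes passed in both comparisons, 2 higher and 3 lower, but PSPH lost its call with Scr without UM-UC-3 replicate 2 (0.41) and with siPAI-1 when any 1 library was left out (0.27 to 0.35). Over the 8579 genes that averaged 10 TPM or more with Scr, 2532 were higher and 2532 lower in both comparisons. PSAT1, PSPH and SLC7A5 have pseudogene copies that could share reads with them.

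ASNS, which makes asparagine from aspartate and glutamine, was the gene that lay furthest below UM-UC-3. It stood at 219 and 225 TPM in UM-UC-3 Scr, 226 and 237 TPM in UM-UC-3 siPAI-1, 59.2 and 47.7 TPM in RT112 Scr, and 40.3 and 45.3 TPM in RT112 siPAI-1. It was 4.17-fold lower with Scr (log2 fold change -2.06, SE 0.12, adjusted p = 0.000837) and 5.41-fold lower with siPAI-1 (-2.44, SE 0.08, adjusted p = 0.000392). Of the genes at 10 TPM or more, 4.53% had a lower log2 fold change with Scr than ASNS.

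The proline enzymes also lay on both sides, but in the reverse order of PHGDH and PSPH, the first and last enzymes of serine synthesis. ALDH18A1, the entry step from glutamate, was at 32.2 to 37.6 TPM in UM-UC-3 and 58.4 to 65.0 TPM in RT112, and was higher there (0.95, SE 0.07, adjusted p = 0.00136, and 0.75). PYCR1, the last step in mitochondria, was at 99.2 and 101 TPM in UM-UC-3 Scr and 58.6 and 57.9 TPM in RT112 Scr, and was lower (-0.78, SE 0.05, adjusted p = 0.00106, and -0.81). The siPAI-1 libraries of PYCR1 and TARS are among the values that chose the list, and their Scr libraries are the controls of that contrast.

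SLC7A5 (LAT1) and SLC3A2 (CD98 heavy chain) form the exchanger that brings leucine and other large neutral amino acids into cells. SLC7A5 stood at 69.1 and 60.5 TPM in UM-UC-3 Scr, 64.9 and 64.3 TPM in UM-UC-3 siPAI-1, 995 and 897 TPM in RT112 Scr, and 603 and 860.4 TPM in RT112 siPAI-1. It was 14.6-fold higher in RT112 with Scr (log2 fold change 3.87, SE 0.09, adjusted p = 0.000275) and 11.1-fold higher with siPAI-1 (3.48, SE 0.19, adjusted p = 0.000749).

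SLC3A2 stood at 143 and 151 TPM in UM-UC-3 Scr, 155 and 147 TPM in UM-UC-3 siPAI-1, 1028 and 1001 TPM in RT112 Scr, and 645 and 865 TPM in RT112 siPAI-1. It was 6.89-fold higher with Scr (2.78, SE 0.05, adjusted p = 0.000242) and 4.94-fold higher with siPAI-1 (2.30, SE 0.16, adjusted p = 0.00115). The ratio of SLC7A5 to SLC3A2 was 0.4 to 0.482 in UM-UC-3 and 0.896 to 0.995 in RT112, so that in RT112 the 2 subunits had nearly the same level. These were the highest of the 37 genes in RT112, and the 37 genes together took 0.605% and 0.627% of the TPM in RT112 Scr, 0.52% and 0.573% in RT112 siPAI-1, and 0.564% to 0.583% in the UM-UC-3 libraries, so that the RT112 siPAI-1 libraries did not lie above those of UM-UC-3.

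SLC7A11, the cystine transporter that also pairs with SLC3A2, did not share this pattern. It was at 13.6 and 11.4 TPM in UM-UC-3 Scr and 11.3 and 9.39 TPM in RT112 Scr, with -0.27 (SE 0.16, adjusted p = 0.248). With siPAI-1 it was lower in RT112, at 8.42 and 9.09 TPM against 13.6 and 14.2 TPM (-0.66, SE 0.11, adjusted p = 0.0105).

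**Figure D2:**
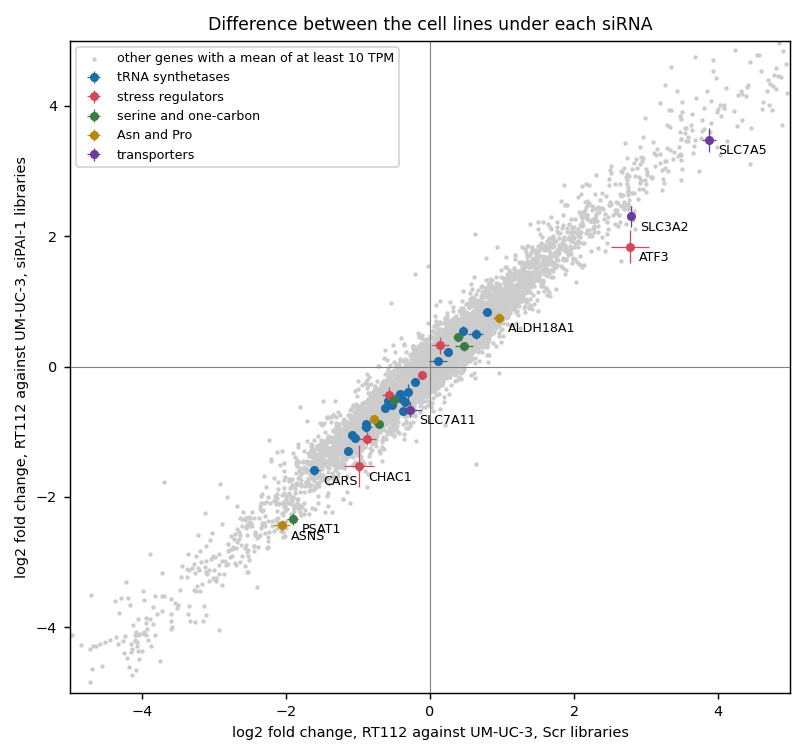
Log2 fold change of RT112 against UM-UC-3 in the Scr libraries (horizontal) and in the siPAI-1 libraries (vertical), for the 37 genes in colours by role with bars of 1 SE, and for other genes that averaged 10 TPM or more in grey; grey genes beyond 5 on either axis are not drawn. SLC7A5 and SLC3A2 lie at the upper right, ASNS and PSAT1 at the lower left, and ATF3 has the largest shift between the siRNAs of the 37 genes, 0.93.

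Whether other genes of the same pathways differed between the lines was read from lists of neighbours. For each such list, the shares over all genes at 10 TPM or more stand beside the counts. They were 33% higher and 33.6% lower in RT112 with Scr, and 33.8% and 33.9% with siPAI-1. Of 24 entries for other ATF4 target genes (CBS has 2 identifiers, between which its reads may be split), 6 were higher and 15 lower in RT112 with Scr (median log2 fold change -0.72), and 5 and 13 with siPAI-1 (median -0.77). GDF15, a secreted stress cytokine, was at 0.09 to 0.58 TPM in UM-UC-3 and 47.8 to 67.2 TPM in RT112 (7.95 and 7.13 on the log2(TPM + 0.1) scale). NUPR1, a stress-response cofactor, was at 11.2 to 15.7 TPM and 0.63 to 0.88 TPM (-4.07 and -3.87). The glycine transporter SLC6A9 was at 7.63 to 9.74 TPM and 0.23 to 0.86 TPM (-3.90 and -4.06).

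Of the 12 proline and one-carbon neighbours, 6 were higher and 2 lower with Scr, and 6 and 4 with siPAI-1. GLDC, of the glycine cleavage system, was lower in RT112 (-4.73 and -4.34), and GLUL, glutamine synthetase, was higher, at 17.8 to 22.2 TPM in UM-UC-3 and 146 to 171 TPM in RT112 (2.91 and 3.11). PRODH, which degrades proline, was listed at 0 in 3 of the 4 UM-UC-3 libraries and at 0.89 to 2 TPM in RT112.

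The eIF2 machinery upstream of ATF4 had 5 of 16 genes higher and 3 lower with Scr, and 4 and 3 with siPAI-1. Of all genes at 10 TPM or more, 33% were higher and 33.6% lower with Scr, and 33.8% and 33.9% with siPAI-1. EIF2S3, the gamma subunit of eIF2, was the furthest apart, at 83.5 to 96.3 TPM in UM-UC-3 and 262 to 272 TPM in RT112 (1.57 and 1.56). PPP1R15B, a subunit of an eIF2 phosphatase, had 0.75 and 0.64, and GCN1L1, which activates the kinase GCN2, had 0.71 and 0.69.

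The XBP1 and ATF6 branches of the unfolded protein response had 7 of 13 genes higher and 1 lower with Scr (median 0.60), and 8 and 2 with siPAI-1 (median 0.64). EDEM1, which directs misfolded glycoproteins to degradation, had 1.70 and 1.56, the transcription factor XBP1 1.28 and 1.52, and CRELD2, a secretory pathway chaperone, 1.22 and 1.36.

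**Figure D3:**
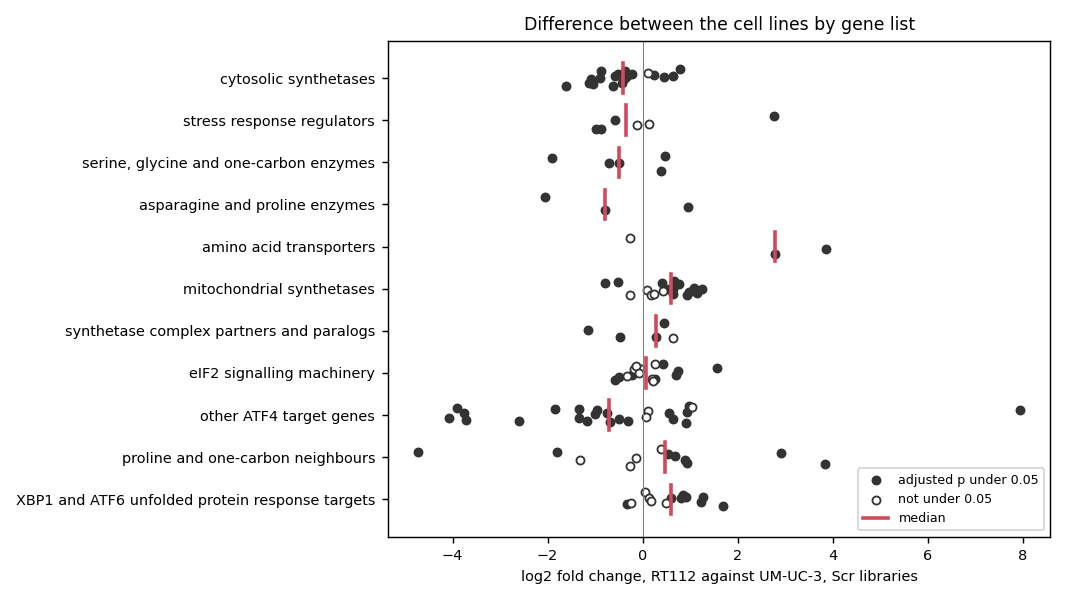
Log2 fold change of RT112 against UM-UC-3 in the Scr libraries (horizontal axis) for each gene of the 5 groups of the 37 genes and of the 6 neighbouring lists (rows), filled where the limma adjusted p was under 0.05, with the median of each list as a red line. The median is -0.40 for the cytosolic synthetases and 0.60 for the mitochondrial list, which includes QRSL1.

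The genes with the response element letters were set beside those without. With Scr, 8 of the 11 genes with the letters had a negative log2 fold change in RT112 (median -0.89, from -2.06 to 2.78), against 12 of the 18 with a promoter entry and no match (median -0.33, from -1.91 to 3.87). Both groups therefore hold genes on either side, such as ASNS and SLC3A2 among those with the letters.

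The other question was how the genes stood after depletion of PAI-1 in each line. By limma, 0 genes of the whole table passed an adjusted p of 0.05 in UM-UC-3, where 18528 were tested and an unadjusted p under 0.05 was reached by 482 with a higher and 632 with a lower level, and 0 in RT112, where 18437 were tested and 617 and 446 reached it. With 1 library left out, limma called 149 to 203 genes in UM-UC-3 and 103 to 375 in RT112. Because this contrast chose the list, its values for the 37 genes are described without a test and support nothing by themselves. In UM-UC-3 the 37 genes had a median log2 fold change of 0.01, and 17 of them were below 0. In RT112 the median was -0.07 and 28 were below 0. Of all genes at 10 TPM or more, 52.1% were below 0 in UM-UC-3 and 48.6% in RT112. Between 23 and 28 of the 37 were below 0 when each RT112 library was left out in turn, and between 16 and 22 for UM-UC-3. The median was -0.03 in RT112 without Scr replicate 1, and it turned to -0.03 in UM-UC-3 without Scr replicate 2.

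In UM-UC-3 the siPAI-1 libraries lay entirely above the Scr libraries for 7 of the 37 genes and entirely below for 9. Of the 8181 genes at 10 TPM or more, 17.8% lay above and 21.2% below in this way. In RT112 they lay above for 3 genes and below for 17, with 20.1% above and 18.1% below among 8387 genes. The 17 were 6 synthetases (FARSA, LARS, RARS, SARS, TARS and YARS), CHAC1, 4 serine and one-carbon enzymes, all 3 asparagine and proline enzymes and all 3 transporters. The 37 genes were not filtered by level, and CHAC1 lay under 10 TPM in every library.

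TARS, on which the list was chosen, stood at 364 and 376 TPM in RT112 Scr and 280.2 and 286 TPM in RT112 siPAI-1, a log2 fold change of -0.39. In UM-UC-3 the Scr libraries stood at 478 and 479 TPM and the siPAI-1 libraries at 459 and 446 TPM, a log2 fold change of -0.08. Both siPAI-1 libraries were below both Scr libraries in each line, and the gap was wider in RT112. The difference between the lines was not tested.

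PYCR1, the other gene on which the list was chosen, stood at 99.2 and 101 TPM in UM-UC-3 Scr and 88.1 and 85.2 TPM in UM-UC-3 siPAI-1 (-0.21). In RT112 the Scr libraries stood at 58.6 and 57.9 TPM and the siPAI-1 libraries at 48.6 and 50.3 TPM (-0.24). Left out in turn, no library moved this value outside -0.23 to -0.19 in UM-UC-3 or -0.26 to -0.21 in RT112.

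SLC7A5 and SLC3A2 were lower with siPAI-1 in RT112, by -0.39 and -0.44, and level in UM-UC-3, at -0.00 and 0.04. In RT112 this rested to a large part on siPAI-1 replicate 1, at 603 and 645 TPM, whereas replicate 2, at 860.4 and 865 TPM, lay nearer to Scr. Without replicate 1 the values were -0.14 for SLC7A5 and -0.23 for SLC3A2. The same library held the lowest ATF3, CHAC1 and PSAT1 levels of RT112.

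CHAC1 had the lowest value of the 37 in RT112, -0.83, with 3.16 and 3.77 TPM for Scr and 1.42 and 2.51 TPM for siPAI-1. Without siPAI-1 replicate 1 it was -0.44. In UM-UC-3 it was -0.30, and without Scr replicate 1 -0.14. ATF3 was 0.51 in UM-UC-3 and -0.42 in RT112, where its libraries overlapped. Leaving out UM-UC-3 Scr replicate 1 gave 0.21, and leaving out RT112 siPAI-1 replicate 1 gave -0.15.

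ASNS and PSAT1 lay on opposite sides in the lines. ASNS was at 0.06 in UM-UC-3, whereas RT112 had -0.32 (-0.16 without RT112 Scr replicate 1), and PSAT1 at 0.15 in UM-UC-3 (0.07 without Scr replicate 2) and -0.28 in RT112 (-0.17 without siPAI-1 replicate 1). ATF4 stayed at 0.00 and -0.02.

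Across both lines, 14 of the 37 genes (37.8%) were below 0 in each, against 25.3% of 7146 genes at 10 TPM or more in both lines. For 6 genes, RARS, TARS, YARS, CHAC1, SHMT2 and PYCR1, the siPAI-1 libraries lay entirely below the Scr libraries in each line (16.2%, against 3.92% of those genes). The 37 genes were not filtered by level, and CHAC1, at most 7.72 TPM in any library, would not be among the 7146. DARS and EPRS lay entirely above in each line (5.41%, against 2.94%). TARS and PYCR1 are in the first count by the choice of the list, and nothing is read from these shares.

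**Figure D4:**
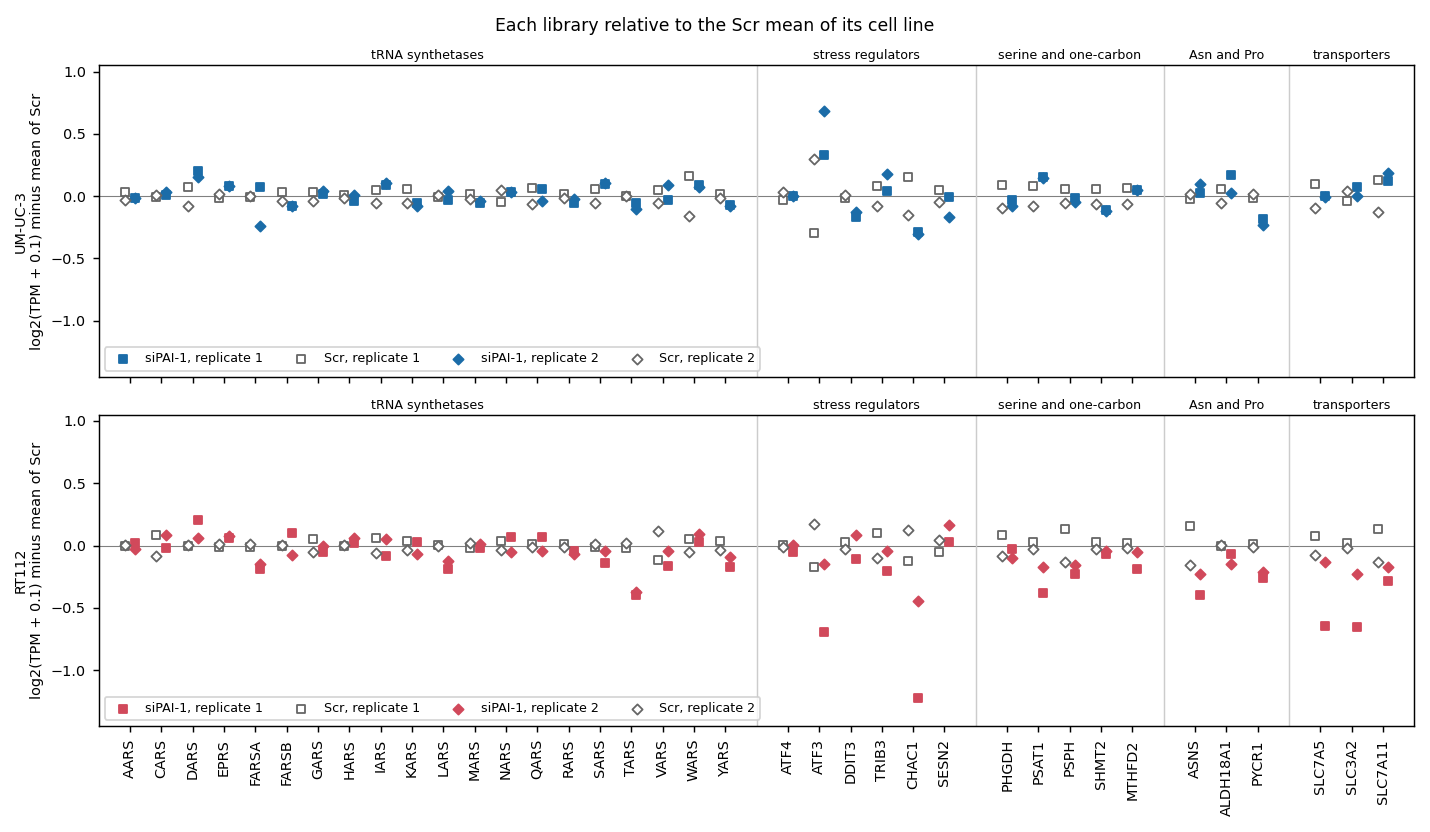
Log2(TPM + 0.1) of each library minus the mean of the Scr libraries of the same line (vertical axes), for the 37 genes by role in UM-UC-3 (upper panel) and RT112 (lower panel), with Scr open and siPAI-1 filled, squares for replicate 1 and diamonds for replicate 2. Most points lie near 0, and in RT112 replicate 1 of siPAI-1 lies furthest below for CHAC1, ATF3, SLC7A5 and SLC3A2.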

How the data were processed

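RNA-seq of 8 libraries was analysed from 2 deposited tables. The deposited TPM values per gene, rounded to 2 decimals, were used for all results; the deposited FPKM values served as an alternative and for depth. The submitters' processing notes name STAR 2.5.0 and RSEM 1.2.25 on GRCh38, while the authors' methods name cutadapt, STAR, featureCounts and DESeq2, so which program made the values is not settled. Counts were not used here, and a log-scale test took the place of DESeq2. The 92 ERCC entries, all at 0, were left out. The check of the targeted gene is not reported here.

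Libraries were assigned from their titles. Line differences and the knock-down were each fitted on 4 libraries with limma 3.58.1 in R 4.3.3 (lmFit and trended eBayes; two-sided p-values) after the transformation log2(TPM + 0.1). Benjamini-Hochberg adjustment covered every gene with a value above 0 TPM in any of the 4; fold changes on this scale understate changes of low genes. The procedure was tested on simulated data with 200 changed genes. Depth was estimated from steps in FPKM of low genes, within 20 to 45 M reads, since a doubled depth also turns the values into whole reads. Python 3.11.15 with pandas 2.3.3, numpy 2.4.6 and matplotlib 3.10.9 made summaries and plots.

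The 37 genes and the neighbouring lists were chosen with earlier results of these data known, and the complex grouping and promoter search were added after the values had been seen. Of each neighbouring list, up to 3 genes with the largest line difference among those passing with both siRNAs were named. Promoters were matched by symbol or synonym. As alternatives, FPKM values, 1 or 0.01 TPM as the pseudocount, rescaling by the median ratio, a mean of at least 1 TPM, eBayes without trend, 1 fit over all 8 libraries, a replicate block, and each library left out were run.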

Additional observations from a re-analysis of the deposited data

Results flagged for a closer look

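ASNS, PSAT1 and SARS were picked out because all siPAI-1 libraries lay above the Scr libraries in UM-UC-3 and below them in RT112. ASNS had a log2 fold change of 0.06 in UM-UC-3 and -0.32 in RT112, PSAT1 had 0.15 and -0.28, and SARS had 0.099 and -0.089. With 1 library left out, SARS lay between 0.044 (without UM-UC-3 Scr replicate 2) and 0.154 (without UM-UC-3 Scr replicate 1) in UM-UC-3, and between -0.138 (without RT112 siPAI-1 replicate 2) and -0.041 (without RT112 siPAI-1 replicate 1) in RT112. The difference between the lines was not tested, and these values come from the contrast that chose the list. Such opposite, non-overlapping changes, in the same order, were seen in 3 of the 37 genes (8.11%) and in 3.71% of the 7146 genes at 10 TPM or more in both lines.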

How the results depend on the processing

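Over the alternatives other than leaving out a library, 7 to 10 of the 37 genes were higher and 16 to 23 lower in RT112 with Scr, and 8 to 10 and 20 to 25 with siPAI-1, while 45.2% to 68.9% and 45.8% to 69.5% of all genes were called. eBayes without trend lost the most calls: FARSA, IARS, NARS, PHGDH, PSPH, QARS, RARS, SARS, SHMT2 and TARS with Scr, and DDIT3, NARS, PSPH, QARS and RARS with siPAI-1. FPKM lost NARS with both siRNAs. Leaving out 1 library, which assumes that the lone library varies like the others, lost CHAC1, FARSA, NARS and PSPH in at least 1 setting and turned WARS with Scr to -0.053 (without UM-UC-3 Scr replicate 2; 0.265 without replicate 1). The median of the synthetases with siPAI-1 (-0.54) lay between -0.58 and -0.50 with 1 library left out, and the median of the 37 genes after knock-down between -0.086 and -0.029 in RT112. Genes at an adjusted p under 0.05 after knock-down, 0 in each line, became 1 in UM-UC-3 when genes averaging under 1 TPM were left out, 2 in RT112 in 1 fit over all 8 libraries, and 149 to 203 in UM-UC-3 and 103 to 375 in RT112 with 1 library left out; the cause was not tested. Deviations of same-numbered replicates correlated at -0.04 to 0.04 between groups, so no pairing by number was seen. Such values cannot exclude that same-numbered libraries came from the same experiment, since noise between libraries can hide it. With a replicate block, with Scr 10 genes were higher and 23 lower, and under siPAI-1 9 and 22, where DDIT3 and PSPH were lost. Rescaling moved the median of all genes by at most 0.04 in size (log2). Depth is an estimate, and 2 libraries per group limit every error given.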
